A study of Mus musculus with 16 samples.

Results

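Mature adipocytes were compared with preadipocytes across all genes in gonadal fat of mice that had gone through early life stress and then eaten a high-fat diet. The comparison used 7 of the 16 libraries of the study, 3 of mature adipocytes and 4 of preadipocytes, chosen by the group codes in the sample labels. All 7 came from female C57BL/6 mice, a standard inbred strain, and no transgene or other allele is named. The pups had been taken from the dam each day from postnatal day 2 to 16 and weaned on day 17, a procedure known as maternal separation and early weaning. The control mice used below for one side comparison, 3 mature adipocyte and 4 preadipocyte libraries, were left undisturbed, weaned on day 21 and fed the same high-fat diet. The remaining 2 libraries, from mice on a low-fat diet, were not used. The age at collection is not given in the sources used here, nor are the antibodies of the magnetic sort, and the labels do not say whether each library is from a different animal, so the p-values speak of the spread between libraries alone, and part of that may be technical. One mature adipocyte library carries an extra character in its title and was placed by the rest of that title. The data are bulk RNA sequencing, with 1 column of counts per library.

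White adipocytes store fatty acids as triglyceride in a single large lipid droplet, release them by lipolysis under catecholamine and hormone control, and secrete hormones such as leptin and adiponectin. They arise from fibroblast-like progenitors in the stroma of the fat pad, the preadipocytes, which carry the receptor PDGFRα, lay down collagen-rich matrix and send signals to immune cells. The change from one cell to the other is driven by the transcription factors PPARγ and C/EBPα and is held back by Wnt signals. The fractions here were parted after collagenase digestion by spinning and filtering, followed by magnetic sorting.

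Library totals were 19265609 to 21952511 counts in mature adipocytes and 18881763 to 21654463 counts in preadipocytes. Fewer genes had a count above 0 in mature adipocytes, 18400 to 20964, than in preadipocytes, 23004 to 25605. Transcripts of the mitochondrial genome took 7.41, 10.3 and 7.62 percent of the counts in mature adipocytes, against 2.42, 1.73, 1.35 and 1.45 percent in preadipocytes. The first principal component of log CPM held 72.3 percent of the variance and parted the cell types. The second held 11.4 percent and parted preadipocyte libraries 1 and 2 from libraries 3 and 4. CPM are counts scaled to a common library size with TMM factors over the 7 libraries. Values of single libraries are given in the order of the library numbers, 1 to 3 for mature adipocytes and 1 to 4 for preadipocytes. A log2 fold change is mature adipocytes over preadipocytes with ± its standard error, and "rose" and "fell" are used of genes with an adjusted p below 0.05 in edgeR's quasi-likelihood test over all genes.

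The labels were checked against markers of each cell type. All 15 mature adipocyte markers rose in the mature fraction, where their summed level was 18530 to 52860 CPM, against 194.1 to 480.8 CPM in preadipocytes. Of 18 progenitor markers, 17 fell, and their summed level was 768.6 to 1288 CPM in mature adipocytes, against 7438 to 18820 CPM in preadipocytes. Pdgfra, the receptor that defines the progenitors (ENSMUSG00000029231, chromosome 5, 75152292 to 75198215), had 19.4, 15.5 and 25.5 CPM in mature adipocytes, against 579.7, 719.7, 607 and 491 CPM in preadipocytes, and fell 29.8-fold (-4.90 ± 0.29, adjusted p = 4.75e-05). Markers of other cells were present in both fractions. Macrophage markers summed to 1623 to 2709 CPM in mature adipocytes and 724.8 to 6147 CPM in preadipocytes, with preadipocyte libraries 3 and 4 the highest. Of 16 endothelial markers, 13 rose, with sums of 1347 to 3076 CPM in mature adipocytes, against 274.7 to 553.8 CPM in preadipocytes. Of 12 mural cell markers, which are those of pericytes and smooth muscle, 6 rose, with sums of 733.8 to 1289 CPM in mature adipocytes, against 128.5 to 523.8 CPM in preadipocytes. Mesothelial markers, those of the lining of the abdominal cavity, summed to 41.61 to 60.11 CPM in mature adipocytes, against 147.5 to 645.4 CPM in preadipocytes, where libraries 1 and 2 were high. In bulk RNA, more cells of a type and more RNA per cell cannot be told apart, which applies to every result that follows.

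**Figure D1:**
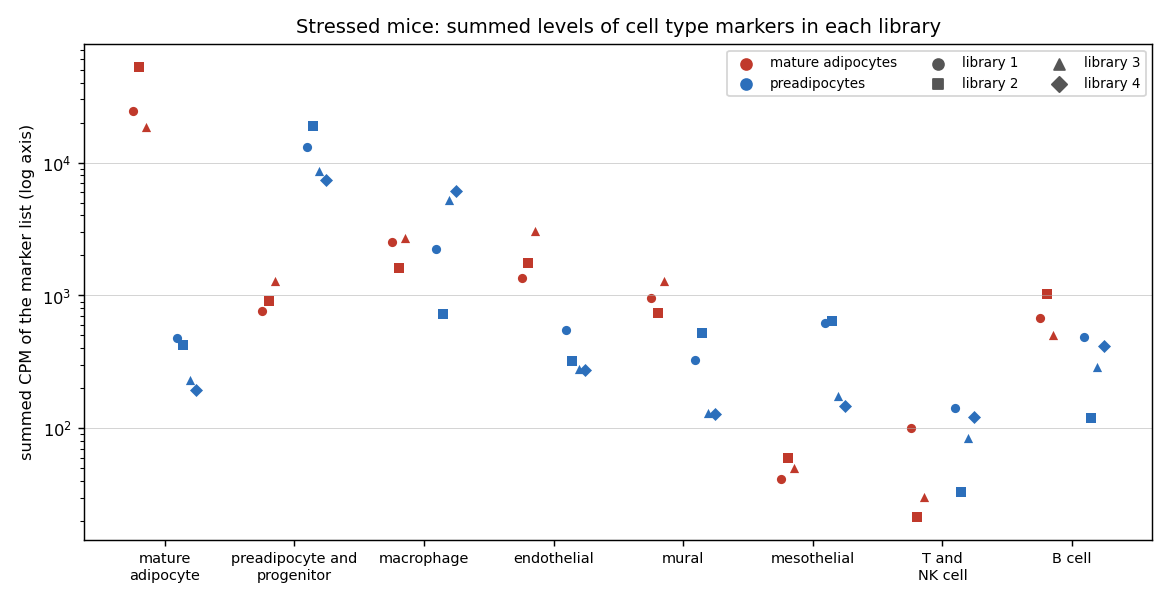
Summed CPM of 8 cell type marker lists on a log axis, in each library of mature adipocytes (red, left) and preadipocytes (blue, right), with 1 symbol per library number. Mature adipocyte and progenitor markers separate the fractions, endothelial sums are higher in all 3 mature adipocyte libraries than in any preadipocyte library, and macrophage sums overlap.

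Of 16489 genes tested, 8201 (49.7 percent) passed the test: 4066 (24.7 percent) rose in mature adipocytes and 4135 (25.1 percent) fell. The 3 mature adipocyte libraries lay all above or all below the 4 preadipocyte libraries for 9252 genes (56.1 percent). The count of any group of genes below has to be read against these shares. The median log2 fold change over all genes tested was -0.12. Large differences were more often losses: 330 genes rose and 720 fell by at least 16-fold, and 103 rose and 227 fell by at least 64-fold. The fitted fold of a gene with few or no counts in one cell type depends on the prior count, so these numbers do too. Without preadipocyte libraries 3 and 4, which held the most macrophage RNA, 7326 genes passed, 3283 higher and 4043 lower.

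**Figure D2:**
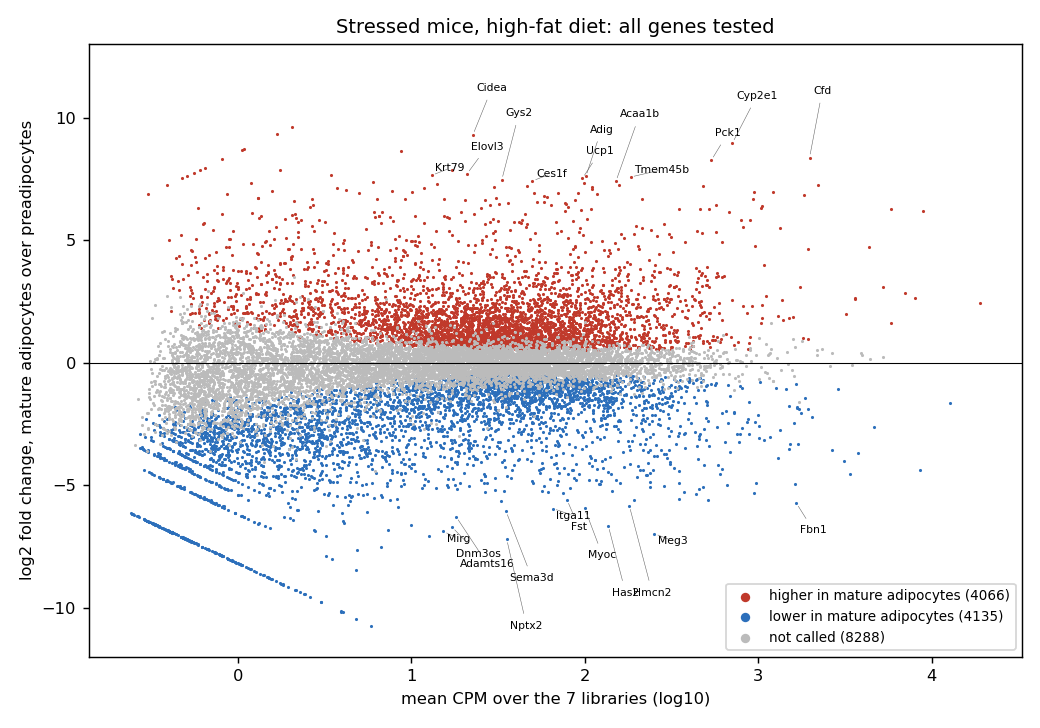
Log2 fold change of mature adipocytes over preadipocytes against the mean CPM over the 7 libraries (log10 scale), 1 point per gene, for the 16489 genes tested. Red points are the 4066 genes called higher in mature adipocytes, blue points the 4135 called lower and grey points those not called, and the 24 named genes are those with the largest changes at 20 CPM or more in the higher group. The parallel lines of blue points at the lower left are genes with few or no counts in mature adipocytes, whose fitted fold change depends on the prior count.

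Per unit of gene length, the protein-coding transcripts that filled each fraction differed. Non-coding transcripts were not ranked. By the authors' FPKM (fragments scaled by gene length and library size), the most abundant protein-coding nuclear transcripts of mature adipocytes were Cfd, which encodes the secreted protease adipsin, at a mean of 4630 FPKM (1824 to 9548) over the libraries, Car3, carbonic anhydrase 3, at 4358 FPKM (1811 to 6524), and Scd1, a fatty acid desaturase, at 3906 FPKM (2869 to 5385). In preadipocytes they were Gsn, the actin-severing protein gelsolin, at 5966 FPKM (3620 to 9167), Eef1a1, a translation factor, at 2037 FPKM (1950 to 2155), and Fth1, ferritin heavy chain, at 1638 FPKM (1445 to 1836). Col3a1, a fibrillar collagen, stood at 1502 FPKM (844.4 to 2042) there. Eef1a1, at 2151 FPKM (1862 to 2359), was also among the 15 most abundant protein-coding transcripts in mature adipocytes, and Fth1 stood at 2912 FPKM (2115 to 3455) there.

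The genes that rose most included a lipid droplet protein, a secreted protease and several enzymes of lipid metabolism. Cidea, which enlarges lipid droplets and is prominent in brown and beige fat (ENSMUSG00000024526, chromosome 18, 67343564 to 67367794), had 30.8, 102 and 25.2 CPM in mature adipocytes, against 0.125, 0.129, 0.0503 and 0 CPM in preadipocytes, the largest rise among named genes at 20 CPM or more in the higher group (626-fold, 9.29 ± 0.78, adjusted p = 9.94e-05), with a fold that rests on very few preadipocyte reads. Cyp2e1, a cytochrome P450 known from ethanol metabolism (ENSMUSG00000025479, chromosome 7, 140763739 to 140774987), had 1220, 3451 and 288 CPM in mature adipocytes, against 7.18, 4.64, 0.101 and 1.23 CPM in preadipocytes. Its mature adipocyte libraries differed widely among themselves, yet the lowest of them was far above the highest preadipocyte library (8.96 ± 1.35, adjusted p = 0.00103). Cfd, adipsin (ENSMUSG00000061780, chromosome 10, 79890853 to 79892655), had 2504, 9465 and 1806 CPM in mature adipocytes, against 30.8, 22.7, 1.31 and 0.864 CPM in preadipocytes, and rose 329.6-fold. Pck1, the enzyme that feeds glycerol into triglyceride in fat (ENSMUSG00000027513, chromosome 2, 173153048 to 173159273), had 1031, 2338 and 371 CPM in mature adipocytes, against 7.85, 6.53, 0.705 and 1.09 CPM in preadipocytes, and rose 306-fold (8.26 ± 1.08). In preadipocytes these adipocyte transcripts were not evenly low: Cfd, Pck1 and Cyp2e1 were several times higher in libraries 1 and 2 than in libraries 3 and 4. The other genes of the 12 with the largest rise were Elovl3, which lengthens very long fatty acids (208-fold), the keratin Krt79 (199.8-fold), Adig, adipogenin (193-fold), the membrane protein gene Tmem45b (190.3-fold), the uncoupling protein Ucp1 (183-fold), the glycogen synthase Gys2 (175-fold), the carboxylesterase Ces1f (170.4-fold) and the peroxisomal thiolase Acaa1b (169-fold). Ces1f and Acaa1b have close relatives of like sequence, and how the counting divided reads between such copies is not given in the sources used here.

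The genes that fell most included matrix genes, a matrix receptor, a guidance cue and 3 non-coding RNAs. Nptx2, a pentraxin known from synapses (ENSMUSG00000059991, chromosome 5, 144545902 to 144557478), had 0.387, 0.414 and 0.446 CPM in mature adipocytes, against 86.5, 101, 31.9 and 27.6 CPM in preadipocytes, and fell 146-fold (-7.20 ± 0.67, adjusted p = 0.000143). Has2, the synthase of high-mass hyaluronan (ENSMUSG00000022367, chromosome 15, 56665627 to 56694539), had 1.11, 3.52 and 2.48 CPM in mature adipocytes, against 318, 388, 157 and 86.3 CPM in preadipocytes (101-fold lower). Fbn1, fibrillin of the microfibrils and source of the hormone asprosin (ENSMUSG00000027204, chromosome 2, 125300594 to 125507993), had 41.4, 37.3 and 82.8 CPM in mature adipocytes, against 2722, 3838, 2859 and 2030 CPM in preadipocytes, and fell 53.1-fold (-5.73 ± 0.45, adjusted p = 8.31e-05). In all 3 the groups were far apart, and preadipocyte library 2 was the highest. The non-coding RNAs Meg3, Mirg and Dnm3os fell 126-fold, 118-fold and 105-fold and are described below. The metalloproteinase Adamts16 fell 78.3-fold, the guidance cue Sema3d 66.8-fold, the collagen-binding integrin Itga11 61.9-fold, Myoc, myocilin, 61.8-fold, the hemicentin Hmcn2 57.4-fold, and Fst, follistatin, which binds activin and myostatin, 48.6-fold.

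**Figure D3:**
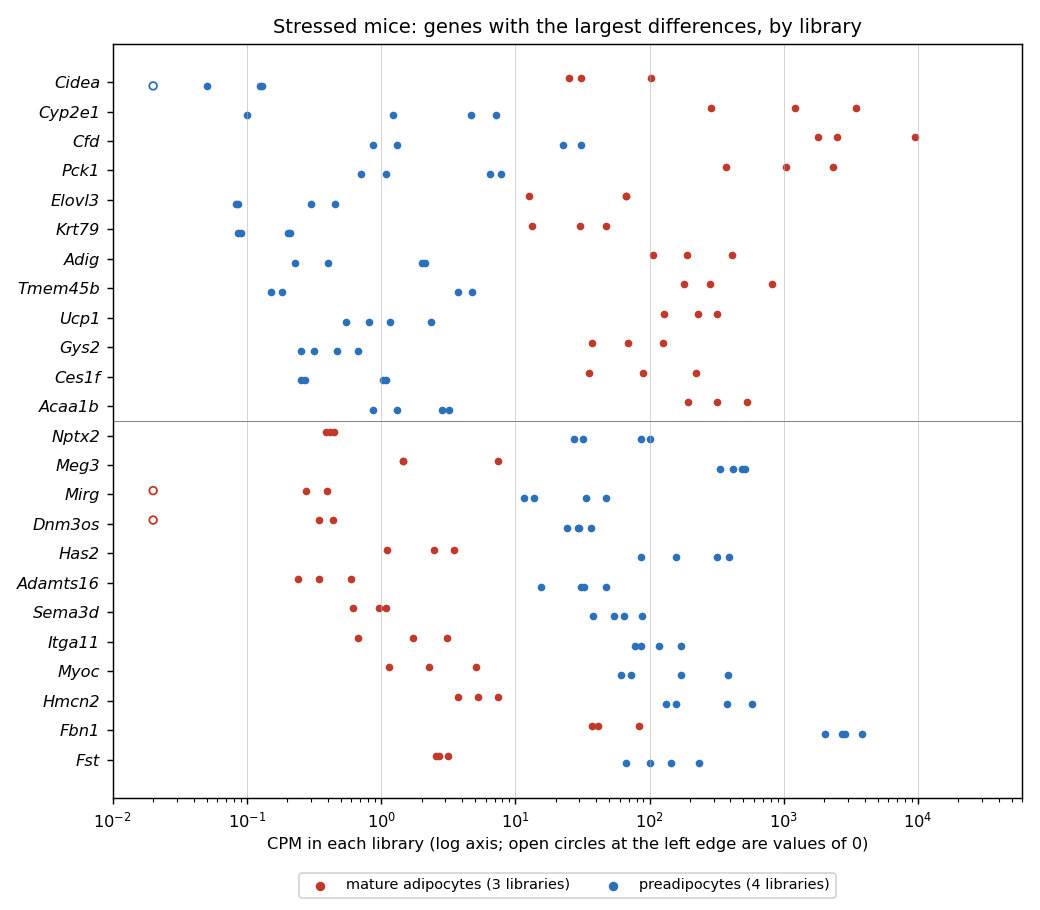
CPM in each library on a log axis for the 12 genes that rose most (upper rows) and the 12 that fell most (lower rows), mature adipocytes in red above preadipocytes in blue; open circles at the left edge are values of 0. In each row the 3 mature adipocyte libraries lie apart from the 4 preadipocyte libraries, and Cfd, Adig and Tmem45b show a pair of higher and a pair of lower preadipocyte libraries.

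Promoters of 4 of these 24 genes, 2 that rose and 2 that fell, are printed as examples that hold core motifs, and were picked for that. Promoters were at hand for 7 genes that rose and 8 that fell, and in the 250 bases before the start 2 and 4 of them held a TATA or CCAAT motif, while 5 and 3 held none of 6 motifs searched. Each is the 250 bases before the RefSeq gene start (GRCm38.p6), 5′ to 3′ on the gene's strand, and capitals mark the TATA box motif TATAAA and the CCAAT box motif CCAAT, read on either strand. Positions count back from the gene start, with the base just before it at -1, and give the first letter printed. The deposited table starts Cyp2e1 at 140763739, within the stretch printed for it. The stretches taken for Mirg (109734731 to 109734980) and Fbn1 (125506439 to 125506688), not printed, lie wholly inside those genes as the same table bounds them. Mirg is 1 of the 4 that fell and held a motif.
Cyp2e1 (chr7:140763569-140763818, + strand): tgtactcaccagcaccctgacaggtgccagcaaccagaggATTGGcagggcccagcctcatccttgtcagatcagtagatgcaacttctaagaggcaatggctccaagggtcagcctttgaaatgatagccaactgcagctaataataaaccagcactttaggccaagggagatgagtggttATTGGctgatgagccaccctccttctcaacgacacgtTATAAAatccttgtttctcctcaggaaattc
Acaa1b (chr9:119157094-119157343, - strand): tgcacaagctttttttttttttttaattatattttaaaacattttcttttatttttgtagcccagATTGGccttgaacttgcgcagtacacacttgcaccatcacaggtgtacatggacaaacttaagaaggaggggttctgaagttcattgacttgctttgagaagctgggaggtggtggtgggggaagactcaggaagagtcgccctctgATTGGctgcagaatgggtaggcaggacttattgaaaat
Meg3 (chr12:109540746-109540995, + strand): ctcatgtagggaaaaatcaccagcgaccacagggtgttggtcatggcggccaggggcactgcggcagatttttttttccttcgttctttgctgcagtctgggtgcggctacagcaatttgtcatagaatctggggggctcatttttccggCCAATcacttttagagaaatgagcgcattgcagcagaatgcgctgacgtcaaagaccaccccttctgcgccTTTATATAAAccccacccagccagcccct
Myoc (chr1:162638900-162639149, + strand): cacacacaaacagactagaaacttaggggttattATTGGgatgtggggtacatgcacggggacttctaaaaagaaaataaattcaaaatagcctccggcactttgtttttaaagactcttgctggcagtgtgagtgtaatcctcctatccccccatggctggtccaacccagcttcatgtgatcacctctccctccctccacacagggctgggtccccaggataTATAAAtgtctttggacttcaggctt
Among the genes that rose, Cyp2e1 holds a TATA motif at -31 and CCAAT motifs at -210 and -68, and Acaa1b holds CCAAT motifs at -185 and -38. Among those that fell, Meg3 holds overlapping TATA motifs at -29 and -25, on opposite strands, and a CCAAT motif at -100, and Myoc holds a TATA motif at -26 and a CCAAT motif at -216. RefSeq promoters of 300 bases, 250 before and 50 after the start, were at hand for 15 of the 24 genes and for 11806 of the genes tested. The TATA motif was in 9.65 percent of 1016 promoters of genes that rose at least 4-fold, 12.2 percent of 1238 that fell at least 4-fold and 7.89 percent of all 11806. The CCAAT motif was in 41.3, 33.6 and 38.2 percent of the same sets. The C/EBP motif TTGCNNAA was in 9.74, 10.8 and 8.71 percent, the AP-1 motif TGANTCA in 5.91, 7.51 and 5.50 percent and the TEAD motif GGAATG in 14.3, 14.9 and 12.3 percent. The DR1 motif, a direct repeat of AGGNCA with 1 base between the repeats, of the kind PPARγ binds with RXR, was in 0.295, 0.404 and 0.246 percent. Of these 4, 1 match stood in the 15 named promoters, an AP-1 motif of Hmcn2 at -101. CpG pairs were depleted most in the genes that fell: the observed over expected CpG ratio was under 0.5 in 32.1 percent of the promoters that rose at least 4-fold, 52.7 percent of those that fell at least 4-fold and 26.4 percent of all. Of the genes with the largest rise, all 7 with a promoter at hand were under 0.5 (median ratio 0.217), and of those with the largest fall 4 of 8 were. No share was tested.

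Most genes of the lipid droplet rose. Of 20 listed, 19 were tested, 14 rose and none fell, with a median log2 fold change of 3.60 against -0.12 over all genes. The droplet coat protein Plin1, perilipin, had 1859, 3777 and 1465 CPM in mature adipocytes, against 34.8, 37.3, 33.9 and 14.9 CPM in preadipocytes, and rose 78.3-fold (6.29 ± 0.49, adjusted p = 8.21e-05). Cidec, which fuses droplets, had 4132, 8071 and 3039 CPM in mature adipocytes, against 64.1, 52.9, 11.5 and 6.50 CPM in preadipocytes (7.23 ± 0.92), and Plin5, which tethers droplets to mitochondria, had 28.3, 96.6 and 82.9 CPM in mature adipocytes, against 0.376, 0.730, 0.403 and 0.409 CPM in preadipocytes (7.15 ± 0.51). The coat protein Plin2, which macrophages and other cells also use, did not pass: it had 1846, 2062 and 1855 CPM in mature adipocytes, against 146, 222, 973 and 1177 CPM in preadipocytes (1.61 ± 0.66, adjusted p = 0.0726). The groups did not overlap for Plin2, but preadipocyte libraries 3 and 4 were several times above libraries 1 and 2, as they were for macrophage markers, whose part was not tested. The members that were not called also included Hilpda (-0.24), Hsd17b11 (-0.19), Rab18 (-0.08) and Pcyt1a (-0.04).

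Of 24 genes of lipolysis and its receptors, 18 rose and 2 fell (median 3.35). The lipases of the pathway rose at each step: Pnpla2, which takes the first fatty acid off triglyceride (5.48 ± 0.42), Lipe, hormone-sensitive lipase (6.16 ± 0.52), and Mgll, which cleaves monoglyceride (4.76 ± 0.27). Among receptors, Adrb3, the β3-adrenergic receptor that triggers lipolysis in rodent fat, had 206, 481 and 73.9 CPM in mature adipocytes, against 4.30, 2.49, 0.252 and 0 CPM in preadipocytes (7.15 ± 1.24, adjusted p = 0.00196). Tshr, the thyrotropin receptor, had 147, 142 and 78.2 CPM in mature adipocytes, against 2.63, 1.76, 0.403 and 0.273 CPM in preadipocytes (6.57 ± 0.72). Receptors that brake lipolysis rose as well: Ffar2, which senses short-chain fatty acids, had 73.0, 87.7 and 60.3 CPM in mature adipocytes, against 1.21, 0.945, 0.503 and 0.591 CPM in preadipocytes (6.48 ± 0.34), and Adora1, the adenosine A1 receptor, had 91.2, 69.1 and 35.5 CPM in mature adipocytes, against 1.08, 1.63, 0.201 and 0.0455 CPM in preadipocytes (6.42 ± 0.83). Both members that fell, of which 1 remained without mature adipocyte library 2, are receptors: Adra2a, the α2-adrenergic brake, had 0.145, 1.31 and 0.842 CPM in mature adipocytes, against 3.80, 7.90, 2.97 and 2.91 CPM in preadipocytes (-2.54 ± 0.73, adjusted p = 0.0186), and Npr1, the natriuretic peptide receptor, had 34.2, 66.2 and 96.8 CPM in mature adipocytes, against 150.2, 224, 154 and 128 CPM in preadipocytes (-1.32 ± 0.36, adjusted p = 0.0148). The call of Npr1 rests on mature adipocyte library 2, without which its adjusted p was 0.0515. Npr3, which clears the same peptides, went the other way, with 726, 304 and 599 CPM in mature adipocytes, against 22.8, 18.2, 5.28 and 4.05 CPM in preadipocytes.

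Most genes of fatty acid synthesis and triglyceride assembly rose. Of 17 genes of de novo synthesis 14 rose and 1 fell (median 3.85), and of 27 genes of triglyceride synthesis and fatty acid uptake 21 rose and 1 fell (median 2.94). Scd1, which makes monounsaturated fatty acids, reached 28090, 18010 and 14900 CPM in mature adipocytes, against 456, 398, 144 and 128 CPM in preadipocytes (6.17 ± 0.60, adjusted p = 0.000174). Thrsp, a lipogenic nuclear protein, had 589.9, 673 and 213 CPM in mature adipocytes, against 10.9, 5.15, 1.81 and 1.14 CPM in preadipocytes (6.69 ± 0.84). The malic enzyme Me1, a source of NADPH, had 1037, 1047 and 917 CPM in mature adipocytes, against 29.6, 35.0, 17.6 and 13.3 CPM in preadipocytes (5.39 ± 0.38), and Acacb, the acetyl-CoA carboxylase of the mitochondrial surface, had 103, 394 and 167 CPM in mature adipocytes, against 6.72, 6.83, 6.44 and 3.64 CPM in preadipocytes (5.23 ± 0.49). The step that makes polyunsaturated fatty acids did not follow: Fads2, the Δ6 desaturase, had 7.93, 9.31 and 9.51 CPM in mature adipocytes, against 39.9, 46.5, 27.1 and 19.2 CPM in preadipocytes, and fell (-1.90 ± 0.32, adjusted p = 0.00185). In triglyceride assembly, Gpd1, which makes glycerol 3-phosphate, had 1413, 3529 and 1627 CPM in mature adipocytes, against 26.2, 21.8, 11.5 and 10.2 CPM in preadipocytes (6.97 ± 0.54), Acsl1, which activates fatty acids, had 1972, 7473 and 3329 CPM in mature adipocytes, against 46.3, 37.2, 34.7 and 30.4 CPM in preadipocytes (6.84 ± 0.51), and Pcx, pyruvate carboxylase, had 1809, 3415 and 1182 CPM in mature adipocytes, against 29.6, 23.1, 16.9 and 13.4 CPM in preadipocytes (6.68 ± 0.49). Lpin2, a phosphatidate phosphatase, was the member that fell (-1.18 ± 0.23), while its relative Lpin1 rose (3.75 ± 0.44). Lpl, lipoprotein lipase, which macrophages also express, had 12110, 10640 and 5723 CPM in mature adipocytes, against 2046, 1995, 3919 and 4462 CPM in preadipocytes (1.61 ± 0.41, adjusted p = 0.0106), highest among preadipocytes in libraries 3 and 4, as macrophage markers were. Without mature adipocyte library 3 a second member fell.

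Many enzymes and carriers of fat have a partner of the same family, and 20 such pairs were set side by side, with levels given per unit length as the authors' FPKM. Of the 20 members listed first, most of them known from mature fat, 17 rose and 3 did not pass, and of their partners 6 rose, 7 fell and 7 did not pass. The pairs were chosen with earlier results of these data known, so these counts describe the chosen pairs and test nothing. Bcat2, which starts the breakdown of branched-chain amino acids in mitochondria, stood at a mean of 54.2 FPKM in mature adipocytes, against 6.66 FPKM in preadipocytes, and Bcat1, which does so in the cytosol, at 0.467 FPKM in mature adipocytes, against 1.86 FPKM in preadipocytes, so that the mature fraction had more of one and less of the other (3.17 ± 0.49 and -1.85 ± 0.40). Cebpa, a late factor of adipocyte differentiation, stood at 429.5 FPKM in mature adipocytes, against 37.3 FPKM in preadipocytes, and Cebpb, an early one, at 105 FPKM in mature adipocytes, against 209 FPKM in preadipocytes (3.67 ± 0.45 and -0.83 ± 0.21). Acsl1 stood at 378 FPKM in mature adipocytes, against 3.69 FPKM in preadipocytes, and Acsl4, which prefers arachidonic acid, at 13.9 FPKM in mature adipocytes, against 16.0 FPKM in preadipocytes, with overlapping groups (-0.05, adjusted p = 0.886). The fatty acid chaperone Fabp4 stood at 1999 FPKM in mature adipocytes, against 83.4 FPKM in preadipocytes, and Fabp5, which macrophages also express, at 131 FPKM in mature adipocytes, against 29.4 FPKM in preadipocytes (4.74 ± 0.28 and 2.29 ± 0.50). Both carboxylases rose, Acacb (5.23 ± 0.49) and the cytosolic Acaca (3.85 ± 0.32), as did the desaturases Scd1 (6.17 ± 0.60) and Scd2 (2.21 ± 0.41). Members of a pair share sequence, and reads that fit both could be split between them in ways the sources used here do not describe.

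Genes of insulin action went both ways. Of 22 tested, 9 rose and 6 fell, with a median log2 fold change of -0.27, and without preadipocyte libraries 3 and 4 the number that rose was 5. Slc2a4, the insulin-regulated glucose transporter GLUT4, had 162, 369 and 75.7 CPM in mature adipocytes, against 2.42, 3.13, 1.16 and 1.27 CPM in preadipocytes, and rose 100.5-fold (6.65 ± 0.63, adjusted p = 0.000159). Tusc5, a protein of GLUT4 vesicles (5.66 ± 0.36), rose with it. The receptor Insr rose less (0.97 ± 0.25), while the growth factor receptors Igf1r (-1.69 ± 0.31) and Igf2r (-1.45 ± 0.31) and the adaptor Grb10, which restrains insulin and IGF1 receptors (-1.24 ± 0.28), fell. Igf1r had 10.7, 17.2 and 21.1 CPM in mature adipocytes, against 68.8, 59.5, 41.5 and 40.5 CPM in preadipocytes. The hexokinases Hk2 and Hk1 did not pass (adjusted p = 0.0752 and adjusted p = 0.134).

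Nearly all genes of 3 mitochondrial groups rose. Of 20 genes of branched-chain amino acid breakdown 18 rose and 1, Bcat1, fell (median 2.66). All 35 nuclear genes of oxidative phosphorylation rose (median 2.48), and so did all 13 transcripts of the mitochondrial genome (median 2.98). Cyc1, cytochrome c1 of complex III, had 338, 789 and 228 CPM in mature adipocytes, against 31.1, 39.2, 46.1 and 42.0 CPM in preadipocytes (3.51 ± 0.41, adjusted p = 0.000350), and mt-Co1, of complex IV, had 31920, 47900 and 26550 CPM in mature adipocytes, against 8268, 6171, 5703 and 6375 CPM in preadipocytes (2.42 ± 0.32). Aldh6a1, of valine breakdown, had 436, 415 and 151 CPM in mature adipocytes, against 31.1, 29.5, 22.0 and 22.3 CPM in preadipocytes (3.67 ± 0.37). The groups did not overlap for any of the 3. Mature adipocyte library 2 was the highest for Cyc1 and mt-Co1, as it was for the share of mitochondrial counts. Cytosolic ribosomal proteins lay near the middle of all genes: 5 of 30 rose and none fell (median 0.18), and 1 rose without mature adipocyte library 2 or preadipocyte library 1, 2 without preadipocyte library 3 and none without preadipocyte library 4.

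Of 20 listed genes of heat production and futile cycles 18 were tested, 11 rose and 2 fell (median 2.45). Ucp1, which uncouples respiration and is the hallmark of brown fat, had 128, 318 and 228 CPM in mature adipocytes, against 2.34, 0.816, 1.16 and 0.545 CPM in preadipocytes (7.52 ± 0.56, adjusted p = 7.54e-05), so every mature adipocyte library of this white depot held it well above any preadipocyte library. Kcnk3, a potassium channel of brown and white adipocytes, had 80.4, 181 and 89.7 CPM in mature adipocytes, against 1.04, 1.59, 0.805 and 0.364 CPM in preadipocytes (6.93 ± 0.51), and Cox8b, a brown fat subunit of complex IV, had 61.1, 128 and 23.4 CPM in mature adipocytes, against 0.793, 1.59, 0.101 and 0.136 CPM in preadipocytes (6.72 ± 0.91). The factor Ebf2, which marks brown and beige progenitors, fell, with 15.9, 25.8 and 21.6 CPM in mature adipocytes, against 160.5, 184, 127 and 99.7 CPM in preadipocytes (-2.76 ± 0.29, adjusted p = 0.000222). Tmem26, a beige fat marker, was the other member that fell, and the number that fell was 1 without mature adipocyte library 3 or preadipocyte library 1, 2 or 3, and 3 without mature adipocyte library 1. Genes of the creatine cycle were split, with Gamt higher (2.24 ± 0.31) and Gatm and Ckb not passing (-0.50 and 0.16).

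Of 16 adipokines 9 rose and 2 fell (median 2.35). Adipoq, adiponectin, had 3090, 3944 and 1354 CPM in mature adipocytes, against 45.7, 37.7, 4.28 and 1.09 CPM in preadipocytes (6.98 ± 1.23, adjusted p = 0.00211), and Lep, leptin, had 1846, 629.8 and 1397 CPM in mature adipocytes, against 52.9, 66.0, 4.83 and 4.36 CPM in preadipocytes (5.33 ± 1.04, adjusted p = 0.00332). Retn, resistin, had 788, 1909 and 615 CPM in mature adipocytes, against 17.2, 9.74, 2.11 and 0.909 CPM in preadipocytes (7.20 ± 1.04). Adipoq and Retn were highest in mature adipocyte library 2 and Lep in library 1, and in preadipocytes all 3 were higher in libraries 1 and 2 than in 3 and 4. Angptl2, an inflammatory angiopoietin-like protein, fell, with 79.0, 98.7 and 81.2 CPM in mature adipocytes, against 345, 446, 423 and 313 CPM in preadipocytes (-2.15 ± 0.22). It was the only member that fell without any 1 library other than mature adipocyte library 1, since Metrnl, a hormone of muscle and fat (-0.98), lost its call (adjusted p 0.0536 to 0.132). The enzyme Nampt (-0.34) and Igf1 (0.70) did not pass. Of 20 complement genes 3 rose and 8 fell (median -0.78). Cfd, C6 of the membrane attack complex, with 47.9, 54.1 and 51.0 CPM in mature adipocytes, against 7.80, 1.33, 9.76 and 8.09 CPM in preadipocytes, and the attack complex inhibitor Cd59a (4.73 ± 0.28) rose. C7 (-4.63 ± 0.34), C3 (-2.63 ± 0.36) and the inhibitor Serping1 (-2.60 ± 0.28) fell, and C7 had 1.31, 1.79 and 2.33 CPM in mature adipocytes, against 37.0, 33.5, 52.1 and 57.5 CPM in preadipocytes.

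**Figure D4:**
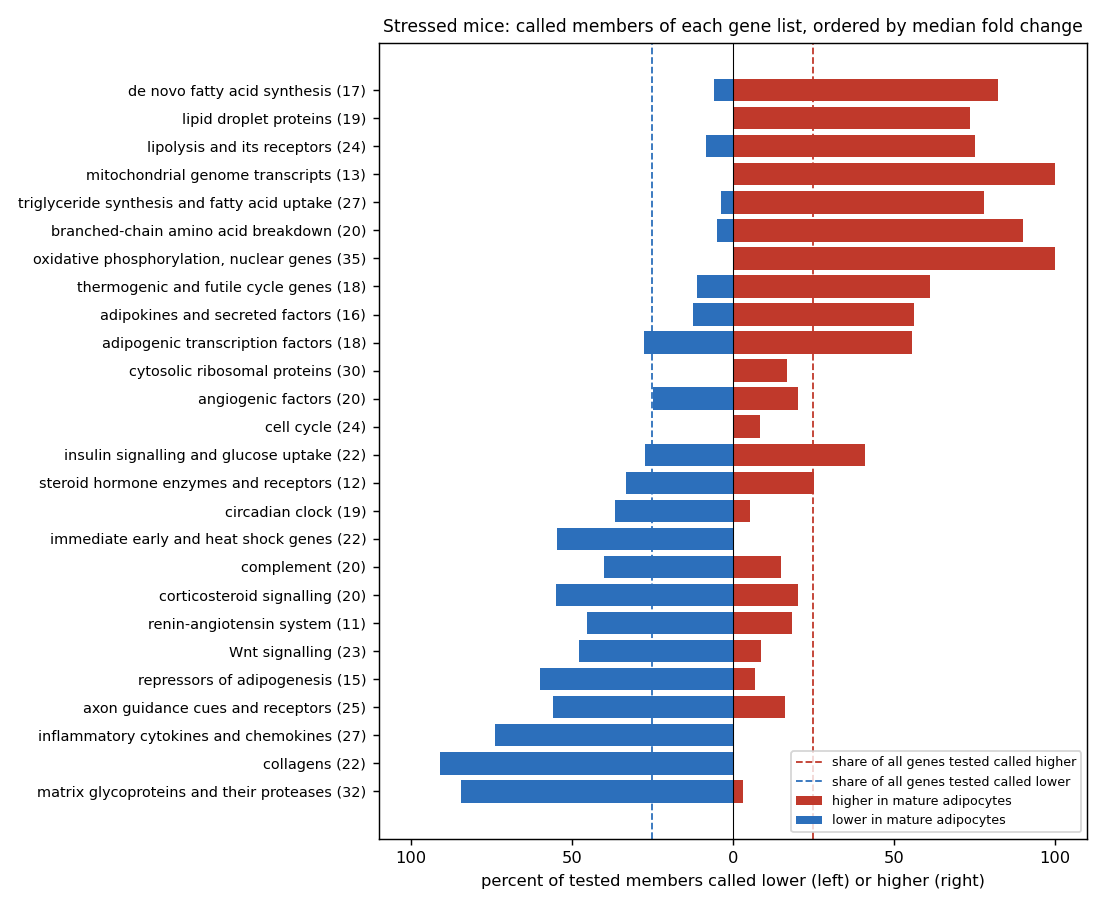
Percent of tested members that rose in mature adipocytes (red bars, right of 0) and fell (blue bars, left of 0) for 26 gene lists, ordered by median fold change, with the number tested in brackets; dashed lines are the 24.7 and 25.1 percent of all genes tested that rose and fell. All members of oxidative phosphorylation and of the mitochondrial genome rose, and collagens, matrix and inflammatory genes lie far to the left of the dashed line.

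Among 18 adipogenic transcription factors 10 rose and 5 fell (median 1.63). Pparg, the central regulator, had 214, 350 and 243 CPM in mature adipocytes, against 30.8, 30.4, 43.4 and 54.9 CPM in preadipocytes (2.75 ± 0.28, adjusted p = 0.000211), and Cebpa had 858, 2079 and 717 CPM in mature adipocytes, against 75.1, 61.7, 115 and 132 CPM in preadipocytes (3.67 ± 0.45). Mlxipl, the carbohydrate-responsive factor ChREBP, had 41.2, 59.6 and 54.9 CPM in mature adipocytes, against 3.67, 1.98, 1.01 and 0.682 CPM in preadipocytes (4.81 ± 0.53), and Ppara, the regulator of fatty acid oxidation, had 8.18, 26.2 and 6.59 CPM in mature adipocytes, against 2.09, 1.29, 0.503 and 0.636 CPM in preadipocytes (3.58 ± 0.65). Factors of early differentiation fell: Klf5 (-3.42 ± 0.68), Klf4 (-2.68 ± 0.37), Ebf2 and Cebpb (-0.83 ± 0.21). Cebpd also fell (-1.44 ± 0.42), but not without mature adipocyte library 1 (adjusted p = 0.0708) or 3 (adjusted p = 0.0521). Of 15 repressors of adipogenesis 9 fell and 1 rose (median -1.51), and without mature adipocyte library 2 or 3 or preadipocyte library 1, 3 or 4 none rose. Wnt10b, a Wnt ligand of precursors, had 0, 1.10 and 0.594 CPM in mature adipocytes, against 17.3, 23.5, 9.01 and 11.1 CPM in preadipocytes (-4.80 ± 0.89, adjusted p = 0.00269), and Sox9, a factor of immature cells, had 1.55, 2.69 and 1.34 CPM in mature adipocytes, against 39.5, 37.6, 16.8 and 19.4 CPM in preadipocytes (-3.94 ± 0.45). Zfp521, a partner that opposes Zfp423 and Ebf1, fell (-2.69 ± 0.37), while Zfp423 itself rose (1.83 ± 0.26). Dlk1, the surface inhibitor known as preadipocyte factor 1, was low in both fractions and did not pass (-0.87 ± 0.69, adjusted p = 0.327). It had 0.339, 1.66 and 0.694 CPM in mature adipocytes, against 1.79, 2.75, 0.755 and 1.14 CPM in preadipocytes.

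Fewer transcription factors rose than of all genes, while the share that fell was near that of all genes. Of 1031 tested, 123 (11.9 percent) rose and 308 (29.9 percent) fell, with a median log2 fold change of -0.36, against 24.7 and 25.1 percent of all genes. Neither difference was tested. Of 17 nuclear receptors of the thyroid-receptor-like family 6 rose and 5 fell, and Ppara, Pparg and Nr1h3 led the rises. Of 46 bZIP factors 5 rose and 23 fell, and of 10 factors of the Rel family, which holds NF-κB and NFAT, 8 fell and none rose. Of 23 forkhead factors 10 fell and only Foxo1, a mediator of insulin action, rose (0.82 ± 0.25). The call of Foxo1 was lost without mature adipocyte library 2 or 3 or preadipocyte library 3 or 4 (adjusted p 0.0667 to 0.111). Of 22 ETS factors 11 fell and only Erg, an endothelial factor, rose, alongside the endothelial markers given above, and its link to them was not tested.

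Homeobox genes of the Hox clusters, which keep positional identity along the body axis, were looked at after their values had been seen. Of 40 listed 30 were tested, 10 rose and 2 fell (median 0.53). Hoxc8 (ENSMUSG00000001657, chromosome 15, 102990607 to 102994111) had 43.5, 117 and 50.2 CPM in mature adipocytes, against 10.6, 8.54, 10.01 and 5.68 CPM in preadipocytes, and rose 8.04-fold (3.01 ± 0.39, adjusted p = 0.000502). Hoxb8 (2.59 ± 0.63), Hoxb5 (2.54 ± 0.56), Hoxa4 (2.53 ± 0.57) and Hoxc5 (2.28 ± 0.29) also rose. Both genes that fell lie toward the posterior end of their clusters: Hoxc11 had 0.677, 0.414 and 0.396 CPM in mature adipocytes, against 7.14, 14.9, 3.77 and 3.32 CPM in preadipocytes (-3.85 ± 0.67, adjusted p = 0.00197), and Hoxd11 had 0.0484, 0.138 and 0.347 CPM in mature adipocytes, against 3.67, 3.78, 1.31 and 0.636 CPM in preadipocytes (-3.67 ± 0.91, adjusted p = 0.0101). Other genes toward that end did not fall: Hoxa10, Hoxa9 and Hoxc9 rose 2.83-fold, 3.76-fold and 2.65-fold, with groups that did not overlap. Hoxa11, Hoxa13, Hoxd9 and Hoxd10 did not pass. Hoxc10, next to Hoxc11 in its cluster, was among the 10 that rose, but lost its call without any 1 of 5 of the 7 libraries (0.72 ± 0.26, adjusted p 0.0885 to 0.163 in those fits). Whether the direction of change follows position in the cluster was not tested.

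**Figure D5:**
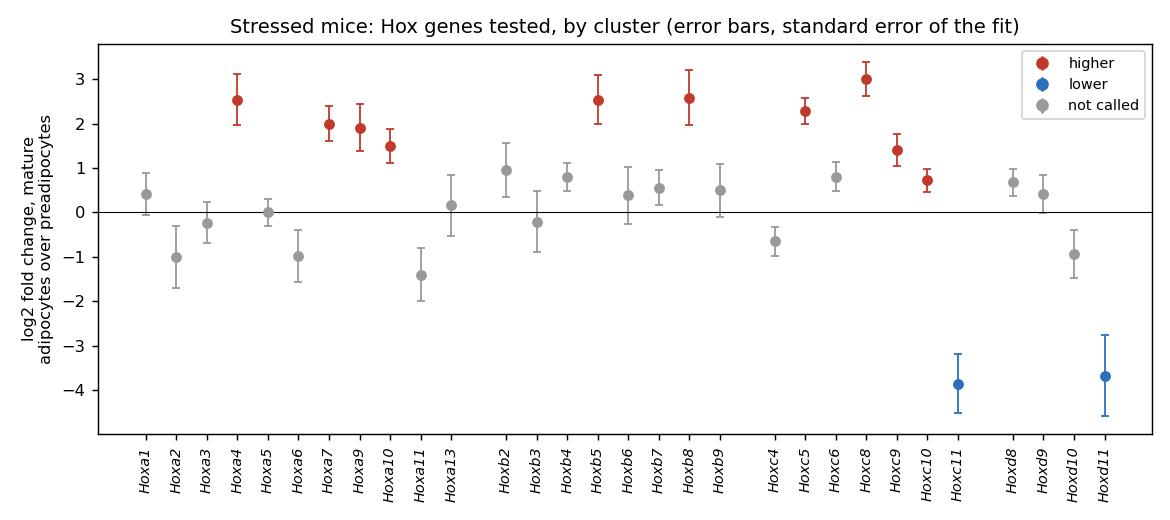
Log2 fold change of mature adipocytes over preadipocytes, with standard error bars, for 30 Hox genes ordered by paralogue number within each cluster. The 10 genes in red rose, Hoxc11 and Hoxd11 in blue fell, and grey genes were not called.

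Of Wnt genes more fell than rose. Of 25 listed 23 were tested, 11 fell and 2 rose (median -1.21). Among ligands, Wnt2 had 0.339, 0.345 and 0.793 CPM in mature adipocytes, against 11.4, 20.5, 11.9 and 18.1 CPM in preadipocytes (-4.94 ± 0.46, adjusted p = 0.000142), and Wnt11 fell too (-2.35 ± 0.51). Among receptors, Fzd1 fell (-2.81 ± 0.23) and Fzd4, which blood vessels also use, rose (1.67 ± 0.19). The secreted inhibitors were split: Sfrp4, with 5.18, 7.86 and 9.06 CPM in mature adipocytes, against 206, 324, 189 and 123 CPM in preadipocytes, Sfrp2 (-4.36 ± 0.62) and Dkk3 (-3.90 ± 0.38) fell, whereas Sfrp5, a Wnt5a antagonist of adipocytes, had 261, 30.5 and 56.6 CPM in mature adipocytes, against 4.21, 6.65, 0.0503 and 0.955 CPM in preadipocytes and rose 38.8-fold (5.28 ± 1.17). The target gene Axin2, a common readout of Wnt signalling, did not pass (0.54, adjusted p = 0.439).

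Guidance cues known from growing axons formed another group that was lower: of 25 genes 14 fell and 4 rose (median -1.52), with 2 that rose when preadipocyte libraries 3 and 4 were left out. Sema3d, a secreted semaphorin (ENSMUSG00000040254, chromosome 5, 12383385 to 12588948), had 0.968, 0.621 and 1.09 CPM in mature adipocytes, against 64.4, 87.4, 54.0 and 37.6 CPM in preadipocytes, and fell 66.8-fold (-6.06 ± 0.40, adjusted p = 6.37e-05). Sema3e (-5.57 ± 0.80), the cues Slit2 (-3.56 ± 0.26) and Ntn1 (-3.61 ± 0.38) and the Slit receptors Robo1 (-3.93 ± 0.41) and Robo2 (-3.98 ± 0.65) fell with it. Sema3g, which adipocytes and endothelium secrete, rose, with 43.7, 47.1 and 116 CPM in mature adipocytes, against 10.5, 6.31, 17.8 and 19.8 CPM in preadipocytes (2.35 ± 0.47, adjusted p = 0.00392), and so did Sema3f (2.17 ± 0.41). The shared receptors Nrp1 (-0.05) and Nrp2 (-0.20) did not pass.

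Most genes of the extracellular matrix fell. Of 22 collagens 20 fell and none rose (median -2.91), and of 32 matrix glycoproteins and their proteases 27 fell and 1 rose (median -3.45). Col3a1, the fibrillar collagen (ENSMUSG00000026043, chromosome 1, 45311538 to 45349706), had 757, 377 and 932 CPM in mature adipocytes, against 7971, 10660, 18760 and 20100 CPM in preadipocytes, and fell 20.9-fold (-4.38 ± 0.53, adjusted p = 0.000383). Col6a6, a chain of the beaded filaments, had 1.31, 3.17 and 3.62 CPM in mature adipocytes, against 163, 138, 76.9 and 45.2 CPM in preadipocytes (-5.30 ± 0.60), and Col14a1, which sits on fibrils, had 14.1, 32.3 and 26.9 CPM in mature adipocytes, against 867, 1231, 698 and 507 CPM in preadipocytes (-5.08 ± 0.46). The basement membrane chain Col4a1, which adipocytes and vessels also make, fell less (-1.09 ± 0.28). Among other matrix genes, Lum, lumican, had 71.7, 28.3 and 63.3 CPM in mature adipocytes, against 1765, 2522, 1215 and 1105 CPM in preadipocytes (-4.92 ± 0.50), and the synthase Has1 fell together with Has2 (-5.59 ± 0.65). The protease Mmp2 (-4.98 ± 0.31) and the inhibitor Timp2 (-3.30 ± 0.42) fell, while the inhibitor Timp4 rose, with 54.5, 86.0 and 73.5 CPM in mature adipocytes, against 11.9, 6.35, 4.38 and 3.73 CPM in preadipocytes (3.43 ± 0.41, adjusted p = 0.000372). Sparc, a collagen-binding protein, did not pass (0.41, adjusted p = 0.273). Pi16, a marker of progenitors in the tissue interstitium, had 13.01, 28.4 and 23.9 CPM in mature adipocytes, against 657, 1411, 479.9 and 594 CPM in preadipocytes (-5.17 ± 0.53).

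Inflammatory mediators were lower in mature adipocytes: of 27 tested 20 fell and none rose (median -2.07). Il6 had 5.27, 55.1 and 30.9 CPM in mature adipocytes, against 476, 354, 547 and 145 CPM in preadipocytes (-3.65 ± 0.79, adjusted p = 0.00541), Cxcl5, which draws neutrophils, had 0, 1.59 and 1.09 CPM in mature adipocytes, against 22.4, 26.1, 10.4 and 6.59 CPM in preadipocytes (-4.23 ± 0.99), and Tslp, which acts on dendritic cells, had 0.290, 0.276 and 1.29 CPM in mature adipocytes, against 13.7, 20.3, 15.2 and 3.27 CPM in preadipocytes (-4.37 ± 0.80). Ptgs2, the inducible cyclooxygenase, fell (-4.44 ± 0.62), as did the monocyte chemokine Ccl2 (-2.84 ± 0.55). Il1b (-0.13), which macrophages make, and Saa3 (1.67) did not pass. Macrophage markers as a set did not separate the fractions: of 16 only Mertk fell, and none fell without any 1 of the 3 mature adipocyte libraries or preadipocyte library 3 or 4, and 3 fell without preadipocyte library 2. Of 22 immediate early and heat shock genes 12 fell and none rose (median -0.76), with the orphan receptor Nr4a3 at 26.8, 77.0 and 64.7 CPM in mature adipocytes, against 794, 754, 472 and 469 CPM in preadipocytes (-3.47 ± 0.43, adjusted p = 0.000448) and Nr4a2 (-3.02 ± 0.45) and Egr3 (-2.07 ± 0.38) lower as well. Leaving out 1 library gave from 8 that fell (without preadipocyte library 1) to 13 (without preadipocyte library 2). Without mature adipocyte library 3, 1 rose.

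Genes linked to stress hormones were given their own lists because the mice had been stressed early in life. Of 20 genes of corticosteroid signalling 4 rose and 11 fell (median -0.91), and without preadipocyte libraries 3 and 4 the numbers were 2 and 9. Without mature adipocyte library 1 or preadipocyte library 3, 8 fell. The glucocorticoid receptor Nr3c1 did not pass (-0.19, adjusted p = 0.429), with 119, 146 and 176 CPM in mature adipocytes, against 186, 164, 158 and 165 CPM in preadipocytes. The enzyme Hsd11b1, which regenerates active glucocorticoid, fell (-2.17 ± 0.49), with 16.9, 12.8 and 11.5 CPM in mature adipocytes, against 95.2, 92.2, 33.0 and 27.6 CPM in preadipocytes. Of the glucocorticoid target genes, Errfi1 (-3.15 ± 0.33) and Crispld2 (-3.98 ± 0.44) fell, and Pdk4, which spares glucose in fasting, rose, with 353, 289 and 172 CPM in mature adipocytes, against 13.4, 16.4, 20.2 and 24.1 CPM in preadipocytes (3.87 ± 0.31). In the renin-angiotensin system 14 genes were listed and 11 tested, of which 2 rose and 5 fell, or 3 without mature adipocyte library 2 or preadipocyte library 3. Agt, the precursor angiotensinogen, had 89.4, 149.7 and 38.3 CPM in mature adipocytes, against 4.13, 4.59, 4.53 and 2.77 CPM in preadipocytes and rose 23.04-fold (4.53 ± 0.45, adjusted p = 0.000184), while the converting enzyme Ace, with 14.8, 28.6 and 40.1 CPM in mature adipocytes, against 298, 436, 241 and 206 CPM in preadipocytes (-3.41 ± 0.42), and the receptor Agtr1a (-1.69 ± 0.38) fell. Of 12 steroid enzymes and receptors tested 3 rose and 4 fell, or 2 without mature adipocyte library 2 or 3 or preadipocyte library 1 or 2. Hsd17b4, an enzyme of peroxisomal oxidation (3.14 ± 0.31), and Hsd17b12, which also works in fatty acid elongation (2.99 ± 0.33), rose, and Akr1c18, which inactivates progesterone, fell, with 0.290, 1.59 and 0.842 CPM in mature adipocytes, against 6.93, 15.2, 6.89 and 20.6 CPM in preadipocytes (-3.80 ± 0.67). Of 19 clock genes 7 fell and 1, the repressor Nr1d1, rose, with 123, 300.2 and 161 CPM in mature adipocytes, against 57.1, 24.5, 44.3 and 78.5 CPM in preadipocytes (1.93 ± 0.42, adjusted p = 0.00568). Per2 (-1.54 ± 0.22) and Ciart (-2.34 ± 0.43) fell.

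Growth factors for vessels were called at shares near those of all genes. Of 20 angiogenic genes 4 rose (20 percent) and 5 fell (25 percent), with a median of 0.09. Of all genes tested 24.7 percent rose and 25.1 percent fell. Vegfb, tied to fatty acid transport, had 103, 202 and 49.2 CPM in mature adipocytes, against 13.2, 19.4, 12.4 and 14.3 CPM in preadipocytes (2.99 ± 0.43, adjusted p = 0.000813), whereas Vegfa did not pass, with 142, 136 and 98.5 CPM in mature adipocytes, against 180.2, 198, 102 and 125 CPM in preadipocytes (-0.27, adjusted p = 0.445). The lymphatic factor Vegfd (-1.86 ± 0.24), Fgf2 (-2.12 ± 0.45), Fgf7 (-3.86 ± 0.52) and Hgf (-2.65 ± 0.49) fell. The number that rose was 2 without mature adipocyte library 3, the list's median took the other sign in 6 of 17 alternatives, and the endothelial markers, higher in every mature adipocyte library, stood beside this, and their part was not tested. Of 24 cell cycle genes 2, Ccnd2 and Ccne1, rose and none fell (median -0.16), and leaving out any 1 library left 1 that rose. The list's median took the other sign in 4 of 17 alternatives.

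The imprinted region on chromosome 12 that runs from Dlk1 to Mirg was followed as a unit because Meg3 and Mirg were among the largest falls. In this region the maternal chromosome makes a chain of non-coding RNAs that host microRNAs, and the paternal one makes Dlk1 and Rtl1. Meg3 (ENSMUSG00000021268, chromosome 12, 109541001 to 109571726) had 1.45, 1.45 and 7.43 CPM in mature adipocytes, against 491, 511, 417 and 337 CPM in preadipocytes, and fell 126-fold (-6.98 ± 0.72, adjusted p = 0.000209). Rian (ENSMUSG00000097451, chromosome 12, 109603940 to 109661716) had 5.66, 6.96 and 6.93 CPM in mature adipocytes, against 284, 263, 225 and 207 CPM in preadipocytes, and fell 37.6-fold (-5.23 ± 0.24, adjusted p = 4.75e-05). Mirg (ENSMUSG00000097391, chromosome 12, 109729764 to 109749460) had 0, 0.276 and 0.396 CPM in mature adipocytes, against 33.8, 47.1, 11.7 and 13.8 CPM in preadipocytes, and fell 118-fold (-6.88 ± 0.91, adjusted p = 0.000566). Rtl1, a retrotransposon-derived gene that overlaps antisense RNA, had no count in any mature adipocyte library, against 5.13, 6.96, 1.76 and 1.27 CPM in preadipocytes. Set against 3 counts over the group (0.0542 CPM), that is at least 69.8-fold lower in mature adipocytes. The transcripts Gm37899 and B830012L14Rik between Rian and Mirg, and Gm26945 within the bounds of Rian, also had no count there, and were at least 97.6-fold, 33.8-fold and 47.4-fold lower by the same floor. Dlk1 at the near end of the region did not pass, as given above. Whether reads were counted by strand is not given in the sources used here, so sense and antisense transcripts of the region cannot be told apart.

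The host RNAs carry microRNAs, and their RefSeq sequences (GRCm38.p6) are printed because the seed, bases 2 to 8 in capitals, sets which messages a microRNA can bind. Mirg holds 14 hairpins with 26 mature microRNAs and 25 different seeds, Meg3 holds 2 hairpins with 3 mature microRNAs, and Dnm3os on chromosome 1 (ENSMUSG00000078190, chromosome 1, 162217623 to 162225550) holds 2 hairpins with 4. Those of Dnm3os and Meg3 and 5 of Mirg follow, 5′ to 3′.
miR-199a-5p in Dnm3os: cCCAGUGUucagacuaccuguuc
miR-199a-3p in Dnm3os: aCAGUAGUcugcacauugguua
miR-214-5p in Dnm3os: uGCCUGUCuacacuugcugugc
miR-214-3p in Dnm3os: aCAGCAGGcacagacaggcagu
miR-1906 in Meg3: uGCAGCAGccugaggcagggcu
miR-770-5p in Meg3: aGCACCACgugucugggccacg
miR-770-3p in Meg3: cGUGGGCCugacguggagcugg
miR-453 in Mirg: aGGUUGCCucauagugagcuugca
miR-496a-5p in Mirg: aGGUUGCCcaugguguguuca
miR-134-5p in Mirg: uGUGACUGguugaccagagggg
miR-541-5p in Mirg: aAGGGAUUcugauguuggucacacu
miR-410-3p in Mirg: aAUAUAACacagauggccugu
Only miR-453 and miR-496a-5p shared a seed among those of Mirg. Dnm3os, a host RNA known from skeletal development, had 0.435, 0 and 0.347 CPM in mature adipocytes, against 29.6, 36.5, 29.4 and 24.3 CPM in preadipocytes, and fell 105-fold (-6.71 ± 0.60, adjusted p = 0.000124). The mature microRNAs themselves were not measured here.

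The same comparison was made in control mice as a side by side with mice that had no early stress. Of 16957 genes tested there, 3672 were higher and 4067 lower in mature adipocytes than in preadipocytes. Control preadipocyte libraries 1 and 3, nearly alike in their counts, entered this fit as separate libraries, which limits these counts and the shares below. Among 16038 genes tested in both, 3083 were higher in both, which is 75.8 percent of the genes higher in stressed mice and 84.0 percent of those higher in control mice. For the genes lower in both, 2844, the shares were 68.8 and 69.9 percent. Only 2 genes passed in opposite directions. Dusp6, a phosphatase that switches off ERK, had 44.7, 59.6 and 62.4 CPM in mature adipocytes, against 37.4, 17.4, 34.5 and 35.7 CPM in preadipocytes of stressed mice (0.83 ± 0.28, adjusted p = 0.0361). In control mice its log2 fold change was -0.98 (adjusted p = 0.0280). Trib2, a pseudokinase that acts on C/EBPα, had 7.26, 5.65 and 26.6 CPM in mature adipocytes, against 3.84, 2.36, 4.23 and 3.77 CPM in preadipocytes of stressed mice (1.89 ± 0.53, adjusted p = 0.0174), with library 3 of mature adipocytes far above the others. In control mice its log2 fold change was -1.17 (adjusted p = 0.0400). In stressed mice the call of Trib2 was lost without that library (adjusted p = 0.101), and that of Dusp6 without mature adipocyte library 2 or 3 or preadipocyte library 3 or 4 (0.0611 to 0.0894).

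The difference between stressed and control mice in the cell type effect was then tested itself, over 14 libraries. edgeR called 0 of 18194 genes (0 percent), while 1223 had p below 0.05 before adjustment and the smallest adjusted p was 0.717, and DESeq2 called 25. On simulated counts the same edgeR test recovered 0 percent of planted 2-fold changes and 27 percent of 4-fold changes. The absence of calls therefore does not show that the cell type effect was the same in stressed and control mice. Without control mature adipocyte library 2 edgeR called 3 genes. The control mature adipocyte libraries held 15344 to 20616 genes with a count. Genes with the smallest p included Dusp6, with a difference in log2 fold change of 1.77 ± 0.41, Trib2, with 3.05 ± 0.69, and Myh4, a myosin of fast skeletal muscle. With CPM scaled over the 14 libraries, Myh4 had 31.7, 18.7 and 7.89 CPM in mature adipocytes of stressed mice, against 0.548, 1.73, 0.0989 and 0.916 CPM in their preadipocytes. In control mice, on the same scale, it had 34.8, 38.3 and 35.8 CPM in mature adipocytes, against 0, 0, 0 and 0.0877 CPM in preadipocytes. Its difference of -5.84 ± 1.198 had an adjusted p of 0.717, and it rests on preadipocyte values near 0. Control preadipocyte libraries 1 and 3 were nearly alike in their counts, and with that pair as 1 library the test again called 0 genes. The stressed and control comparisons share no library.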

How the data were processed

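Gonadal fat of female mice was digested with collagenase, parted into a mature and a stromal fraction, sorted magnetically and sequenced as total RNA, per the labels' protocols. Reads were processed with STAR 2.6.1d on mm10 (GRCm38), with DESeq2 1.20.0 and edgeR 3.24.3, per the submitters' processing notes. Gene coordinates are those of the deposited table, on that build. How reads were counted, with or without regard to strand and on which annotation release, is not given in the sources used here. The authors deposited whole-number counts and FPKM for 54532 genes in 16 libraries. The FPKM equal counts over gene length and library total times a single factor per library, so only the counts were tested, and FPKM were used to set levels of different genes side by side and in alternatives (log2 of FPKM plus 1 or 0.1).

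Counts of the 7 libraries were filtered with edgeR's filterByExpr, scaled by TMM and tested with the quasi-likelihood F test (edgeR 4.0.16, R 4.3.3, robust), with Benjamini-Hochberg adjustment over all genes at 0.05. The standard error is the log2 fold change over the square root of F. The effect of stress on the difference was an interaction term over 14 libraries. Library totals, given with the results, set the counting precision. Samples were grouped by title. Alternatives were DESeq2 1.42.0, limma 3.58.1 on FPKM, other scaling and filters, a replicate block and leaving out libraries. The scripts were tested on simulated counts. There the comparison of the 7 libraries recovered 8 percent of planted 2-fold changes and 76 percent of 4-fold changes.

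The 26 gene lists, 14 marker lists and 20 pairs were chosen with earlier results of these data known. The rule named the 12 largest changes in each direction (at least 20 CPM in the higher group, groups apart, no predicted genes or antibody segments), up to 4 called members per list with those against most of their list, both members of each pair, the 6 smallest interaction p-values in each direction and the markers. Other genes named were chosen after their values were seen. Some genes that the rule named are not reported here. Of 706 list symbols 705 matched. Promoter and microRNA sequences are from RefSeq (GRCm38.p6), and 11806 genes tested had a promoter. Both strands were searched for 6 motifs, all given with the results.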

Additional observations from a re-analysis of the deposited data

Results flagged for a closer look

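In each group of 4 preadipocyte libraries the gap of the most extreme library to its neighbour was set against the whole range, for named genes and list sums, and 17 of 238 such groups stood out, where chance alone flags about 5 percent. At that rate chance alone gives most of the 17 flags. Genes and the sums of lists that hold them were both examined, so the groups are not independent. Which of the flags go beyond chance was not tested, and the values below only describe single libraries. Mature adipocytes, with 3 libraries, were not examined in this way. All values are CPM.

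Library 1 held more endothelial RNA than the others: Cldn5, a tight junction protein of vessels, was at 42.8, with the others at 10.6 to 13.8, and the endothelial markers summed to 553.8, with the others at 274.7 to 322.4. In the same library Gzmb, a granzyme of cytotoxic lymphocytes, was at 18.7 (others 2.10 to 4.55), the glucose transporter Slc2a1 at 63.98 (35.5 to 39.4) and the chaperone Fkbp4 at 53.4 (58.2 to 59.1), and the renin-angiotensin genes summed to 1112 (1340 to 1367).

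Library 2 held the droplet protein Plin5 at 0.730 (others 0.376 to 0.409), the enzyme Hsd17b1 at 1.85 (0.682 to 0.856) and the oviduct glycoprotein Ovgp1 at 6.35 (2.52 to 2.67). Its sum was 813.3 for lipolysis genes (734.5 to 747.3), 422.0 for steroid genes (362.0 to 371.5) and 87.9 for dendritic cell markers (250.6 to 269.1).

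Library 3 held Krt8, a keratin of mesothelium and epithelium, at 0.956, with the others at 32.3 to 34.5. Tusc5 was at 15.9 there (11.5 to 11.9) and the insulin receptor adaptor Grb14 at 3.67 (3.13 to 3.22). Library 4 held Plin1 at 14.9 (33.9 to 37.3) and Acacb at 3.64 (6.44 to 6.83).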

How the results depend on the processing

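The count of 8201 genes stayed within 1.5 times under every alternative, from 6330 with a replicate block (2851 higher, 3479 lower) to 9126 with DESeq2, and leaving out 1 library gave 6690 to 7758. No gene called in the main comparison changed sign in any alternative. The labels do not say whether same-numbered libraries share an animal, and they were treated as unpaired. The deviations of same-numbered libraries correlated at -0.252, 0.176 and -0.0303, and those of differently numbered libraries at -0.208 to 0.216. So few correlations cannot show whether the libraries were paired. For the difference between stressed and control mice, DESeq2 called 25 genes where edgeR called 0, leaving out 1 library gave 0 to 3, and the other alternatives gave 0. Of 188 named genes called, 147 were called in every alternative that gave a value and 41 were lost in at least 1. Of 680 list medians 614 stayed within 1 SD between replicates and 66 moved. Signs changed for angiogenic (6 of 17 alternatives), cell cycle (4), erythroid (3), lipid-associated macrophage (2) and macrophage genes (1, without preadipocyte libraries 3 and 4), and the cause was not tested. With 3 and 4 libraries, a difference that missed the threshold is not shown to be absent.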

Other observations

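Classes of transcripts differed between the fractions beyond protein-coding genes. Among genes with a mean of at least 1 CPM, 28.3 percent of 13347 protein-coding genes rose in mature adipocytes and 22.8 percent fell. Of 206 long intergenic non-coding RNAs 16.0 percent rose and 38.3 percent fell, and of 182 antisense RNAs 19.2 percent rose and 36.8 percent fell. Of 136 unspliced transcripts of the annotation class TEC 4.41 percent rose and 61.8 percent fell, with a median log2 fold change of -2.50. More genes had a count in preadipocyte libraries, as given above, and the part of this in the result was not tested.

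Among markers of other cells that the sort could hold, few of blood and immune cells passed with all 7 libraries. Epithelial and mesothelial markers fell more often. No erythroid marker of 7 and none of 10 dendritic markers passed, 2 of 13 T and NK cell markers fell, 1 of 12 B cell markers fell and 1 rose, and 1 of 10 neutrophil and mast cell markers fell. Without preadipocyte library 2, which had the lowest preadipocyte sum for each of the dendritic, T and NK, B, and neutrophil and mast cell lists, 3 dendritic, 4 T and NK, 3 B and 5 neutrophil and mast cell markers fell. T and NK cell markers that fell numbered 1 of 13 tested without mature adipocyte library 3 and 1 of 11 tested without preadipocyte library 1. For neutrophil and mast cells the number was 2 without mature adipocyte library 2 and 0 without mature adipocyte library 1 or preadipocyte library 3 or 4, and no B cell marker rose without mature adipocyte library 2 or preadipocyte library 3. Of 10 epithelial and ovarian markers 5 fell, or 3 without mature adipocyte library 1. Without preadipocyte library 1 only 6 of them were tested, and 3 fell. The summed level of this list overlapped between the fractions and was highest in mature adipocyte library 3. It was 9.87, 53.2 and 131.6 CPM in mature adipocytes, against 95.8, 77.7, 60.7 and 89.5 CPM in preadipocytes. Of 11 mesothelial markers 5 fell, but 2 without mature adipocyte library 1, 3 without mature adipocyte library 2 or 3, and 10 without preadipocyte library 3 or 4. Th, the enzyme that marks sympathetic nerves, was at 0 in all 7 libraries.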
